A study of Mus musculus with 6 samples.

Results

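Ribosomal protein genes encode the proteins of the cytosolic ribosome, and 78 of the 23420 gene symbols in the count table belong to them by a rule on the symbol: Rpl or Rps followed by a number, the stalk genes Rplp0, Rplp1 and Rplp2, and Rpsa, without S6 kinases, Rps27l and pseudogene symbols. Of these 78 genes, 32 code for proteins of the small subunit and 46 for proteins of the large subunit. The rule used names only and no measured value. The ribosome reads messenger RNA on its small subunit and joins amino acids on its large subunit, and its proteins are made in nearly equal numbers, so that their messages are among the most abundant of a dividing cell. Most of these messages start with a run of pyrimidines (a TOP motif, for terminal oligopyrimidine), through which their translation follows growth signals, and Myc raises the transcription of ribosomal genes. Ribosomal protein genes have many processed pseudogenes, which are near copies of the message elsewhere in the genome.

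Total RNA depleted of ribosomal RNA was sequenced from 6 confluent cultures, 3 of β1-WT-GFP cells (named WT here) and 3 of β1-K794Q-GFP cells (named K794Q here), each lettered A to C. Both are eEnd2 cells, a mouse embryonic endothelial line, transfected without further treatment with a human Integrin-β1A chimera that carries eGFP in its extracellular part, driven by a short human β-actin promoter behind a chicken lysozyme matrix attachment region, and they express mouse Integrin-β1 besides. The chimera was wildtype or held glutamine in place of the lysine K794 of the cytoplasmic tail, which mimics an acetylated lysine. Cells were sorted for low and for high GFP, and the labels do not tie a culture to either population, so whether the cultures of a group come from separate transfections is not known and p values measure the spread between these cultures. The comparison asks whether the K794Q form changes gene expression of the endothelial cell.

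Totals ranged from 9589826 to 15287191 counts per culture. Of 10 endothelial markers, 9 were at 1 CPM or more in every culture (CPM is the count relative to the library size after TMM normalization), whereas Epcam and Krt18 of epithelia had 0 counts. Of 4 leukocyte markers, Cd68 of macrophages was at 1 CPM or more in every culture and Cd3e of T cells had 0 counts, and their summed level was 37.6 to 88.6 CPM in WT cultures and 31.0 to 103 CPM in K794Q cultures. The summed level of 7 mesenchymal or mural markers was 2.58 to 3.75 CPM in K794Q cultures and 82.4 to 195 CPM in WT cultures; whether this bears on the ribosomal protein genes was not tested. WT cultures A and B were much alike, with 65 of 11608 tested genes at least 2-fold apart, and culture C stood apart from both, with 2701 and 2539 genes. Among K794Q cultures, B stood apart from A and C. The human chimera has no row in the mouse table, so its expression was not checked here.

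The gene starts of 57 of the 78 genes could be matched to the RefSeq promoter table (GRCm38.p6). The letters CTTTC, a short pyrimidine run of the TOP kind, lay on the given strand within 25 bases on either side of the start in 18 of these 57 promoters (31.6%), against 7.87% of all 27025 genes of the table. The letters CCGGAAG, which ETS family factors such as GABPA can bind, lay on either strand of the 300 bases in 24 of the 57 (42.1%), against 9.93% of all genes and 21.1% of the 8601 tested genes. A match is a run of letters and not a bound site. CTTTC shared a base with the reverse complement of CCGGAAG in 0 of the promoters, and overlap with CCGGAAG on the given strand was not checked. The stretches below, from 75 bases before the start to 25 bases into the gene, are those of the 4 genes with the lowest p values among higher genes and the 2 among lower ones; capitals mark CTTTC around the start and CCGGAAG anywhere in the stretch.
Rpl41, chr10:128549144-128549243, minus strand: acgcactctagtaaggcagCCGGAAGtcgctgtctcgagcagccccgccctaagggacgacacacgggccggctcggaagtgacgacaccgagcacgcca
Rps26, chr10:128626482-128626581, minus strand: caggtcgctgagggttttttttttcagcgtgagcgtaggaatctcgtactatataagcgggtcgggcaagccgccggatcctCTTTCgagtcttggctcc
Rps15, chr10:80292356-80292455, plus strand: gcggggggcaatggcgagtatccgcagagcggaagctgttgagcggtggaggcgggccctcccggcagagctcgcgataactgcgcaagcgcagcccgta
Rpl15, chr14:18270962-18271061, minus strand: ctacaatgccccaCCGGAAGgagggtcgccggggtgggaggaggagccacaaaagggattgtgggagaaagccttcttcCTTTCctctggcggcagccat
Rpl35, chr2:39005107-39005206, minus strand: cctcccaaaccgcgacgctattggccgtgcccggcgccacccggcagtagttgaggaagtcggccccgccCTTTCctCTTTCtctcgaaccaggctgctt
Rps15a, chr7:118116123-118116222, minus strand: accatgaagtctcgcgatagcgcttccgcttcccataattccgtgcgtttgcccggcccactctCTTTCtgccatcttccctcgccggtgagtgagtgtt
CTTTC stood within 25 bases of the start in Rps26, Rpl15, Rpl35 and Rps15a, at 2 places in Rpl35, and in the stretches shown the 3 genes of chromosome 10 shared neither run of letters.

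As a family, the ribosomal protein genes took 1.34%, 1.34% and 1.54% of all counts in WT cultures A to C, and 1.65%, 1.12% and 1.08% in K794Q cultures A to C. The WT mean was 1.41% ± 0.115 (SD, n = 3), and the K794Q mean was 1.28% ± 0.321 (SD, n = 3). The highest and the lowest of the 6 cultures were thus both K794Q cultures, and the difference of -0.13 percentage points was smaller than the spread among them. It was -0.31 without K794Q culture A, -0.05 without B, -0.02 without C and -0.06 without WT culture C. Counting error was far smaller than these differences, with a 95% Wilson interval of 1.07% to 1.08% in K794Q culture C, which covers counting error only. The lead of K794Q culture A and the difference between the means depended in part on the genes Rpl41 and Rps26, described below. The order of the 6 cultures was the same without these genes. Without them K794Q culture A was at 1.499% and WT culture C at 1.495%, and the means were 1.37% in WT and 1.18% in K794Q cultures. Both subunits kept nearly the same balance: the counts on large subunit genes were 1.28, 1.33 and 1.30 times those on small subunit genes in WT cultures A to C, and 1.26, 1.27 and 1.26 times in K794Q cultures A to C, slightly lower in each of the latter.

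**Figure D1:**
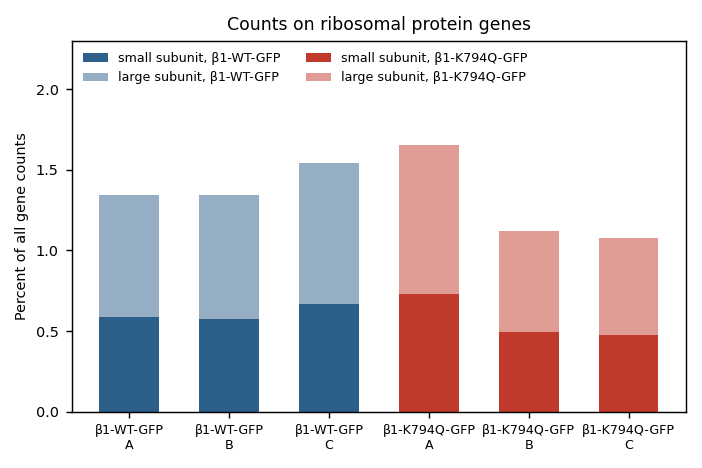
Percent of all gene counts (y axis, from 0) that fell on small subunit genes (dark) and large subunit genes (light) in each culture (x axis). K794Q culture A has the tallest bar at 1.65%, and K794Q cultures B and C have the shortest at 1.12% and 1.08%.

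Of the 78 genes, 74 passed the filter on low counts and were tested (31 of the small and 43 of the large subunit). In edgeR's quasi-likelihood test with the study's thresholds, a 2-fold change and an unadjusted p no higher than 0.05, Rpl41 and Rps26 were higher in β1-K794Q-GFP cells and 0 of the 74 were lower, where 3.48% of all 11608 tested genes were higher and 1.71% lower (5.19% in either direction). At the p threshold alone 4 genes were higher, namely Rpl41, Rps26, Rps15 and Rpl15 (6.08% of all tested genes), and 2 were lower, Rpl35 and Rps15a (4.08% of all tested genes). None of the 74 had an adjusted p of at most 0.05 in that test, where 0.181% of all tested genes did; their Benjamini-Hochberg adjusted p ranged from 0.292 to 0.994, and in DESeq2 Rpl41 alone passed, at an adjusted p of 0.036. These shares of called genes were close to or under the background.

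The log2 fold change (β1-K794Q-GFP over β1-WT-GFP) was below 0 in 62 of the 74 genes, against 51.6% of all tested genes. Its median was -0.20, against -0.02 over all tested genes, and 67 of the 74 lay within 0.5 of 0. Small subunit genes had a median of -0.26 and large subunit genes a median of -0.19. The median standard error of a single gene, 0.24, was larger than the median change. The family median was -0.38 without K794Q culture A, -0.06 without K794Q culture C and -0.07 without WT culture C, so that its size rested on these cultures while its sign stayed below 0 whichever culture was left out.

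**Figure D2:**
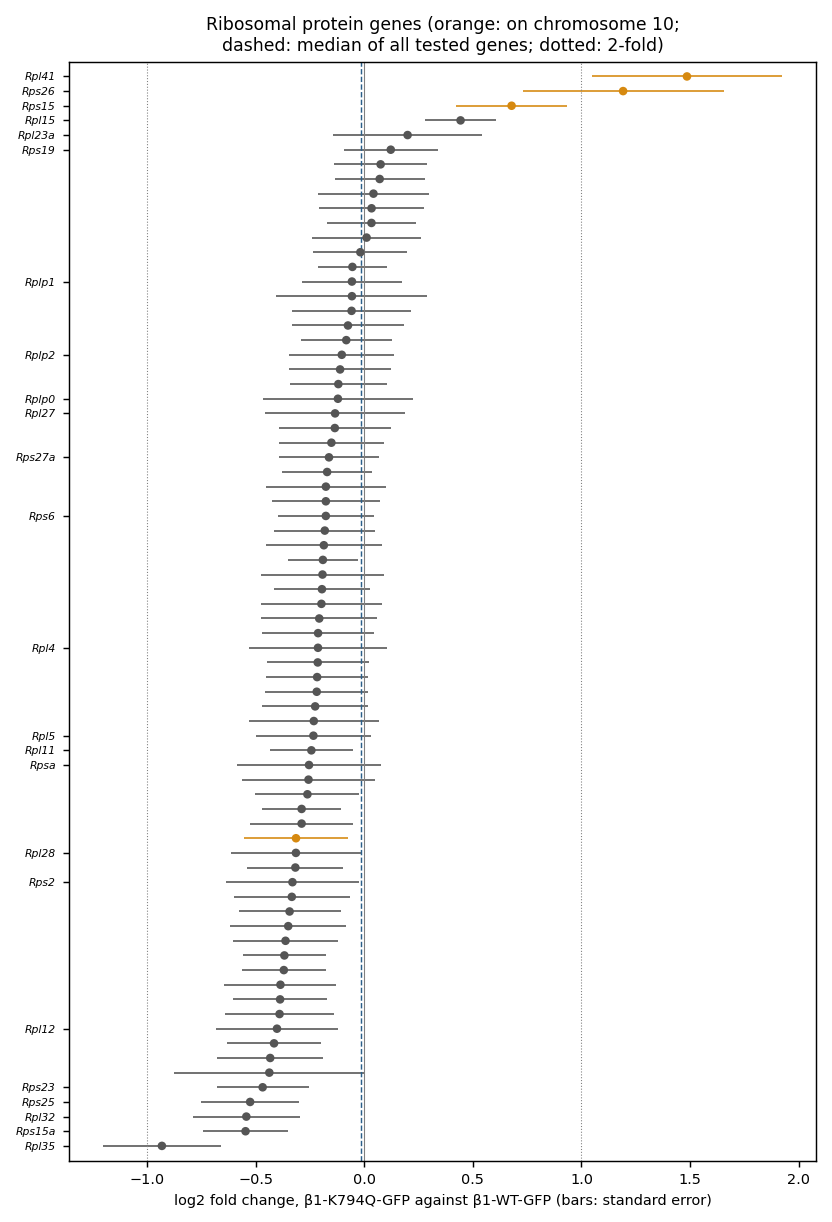
Log2 fold change of each of the 74 tested ribosomal protein genes (x axis) with its standard error (bars), ordered by size, with names for the main genes described; orange genes lie on chromosome 10, the dashed line is the median of all tested genes and dotted lines mark 2-fold. Rpl41 and Rps26 lie beyond the 2-fold line at 1.49 and 1.19, and the other genes reach from -0.93 (Rpl35) to 0.68 (Rps15).

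The order of the cultures was shared by nearly all genes of the family. As the log2 ratio to the β1-WT-GFP mean, the median over the 74 genes was -0.10, -0.13 and 0.21 in WT cultures A to C and 0.09, -0.21 and -0.54 in K794Q cultures A to C, whereas the median over all tested genes was between -0.06 and 0.00 in each of the 6. K794Q culture A was above culture C in 74 of the 74 genes, by a median of 0.61 on the log2 scale. Culture A was the highest K794Q culture in 70 of the 74 genes (25.7% of all tested genes), and culture C was the lowest of them in 65 (33.7% of all tested genes) and the lowest of all 6 cultures in 60 (17.2% of all tested genes). Among WT cultures, C was the highest in 61 of the 74 genes (45.2% of all tested genes). The cultures of a group thus differed from each other by more than the group medians did. The share of counts on the ribosomal RNA precursor Rn45s, a sign of how far depletion went, was 1.60%, 1.26% and 6.01% in WT cultures A to C and 5.42%, 4.08% and 5.11% in K794Q cultures A to C; its part in the order of the cultures was not tested. The tested ribosomal protein genes had a median of 1775.5 bases of exon and a median transcript length of 779 bases. Over 1112 other tested genes with 1 to 2 kb of exon, the median log2 ratio was -0.02, -0.06 and -0.10 in K794Q cultures A to C, the same order over a much smaller range. Over 294 other tested genes with under 1 kb of exon it was 0.11, -0.18 and 0.07. The part of gene length in the order of the cultures was not tested.

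**Figure D3:**
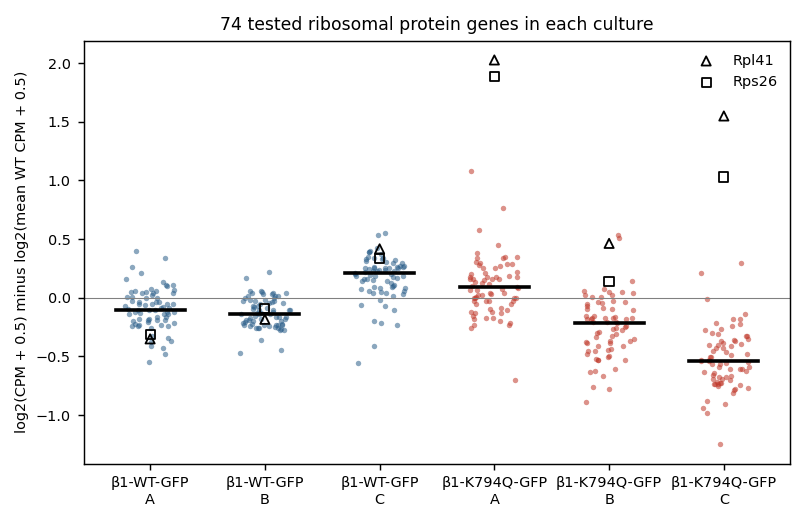
Log2 ratio of each tested ribosomal protein gene to its β1-WT-GFP mean (y axis) in each culture (x axis); points are genes, bars are medians over the 74 genes, and open symbols are Rpl41 and Rps26. The family median falls from 0.09 in K794Q culture A to -0.54 in culture C, while Rpl41 stays above the family in all 3 of these cultures.

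Rpl41, a very small protein of the large subunit, was the gene with the largest change. Its level was 121, 136 and 207 CPM in WT cultures A to C and 632, 214 and 454 CPM in K794Q cultures A to C. All K794Q cultures were above all WT cultures, though B by only a few CPM above WT culture C. The log2 fold change was 1.49 (SE 0.44, adjusted p = 0.295, edgeR quasi-likelihood test), and the exact permutation test gave p = 0.1, the smallest value that 3 cultures against 3 allow. Leaving out WT culture A gave 1.34 and a p just above the threshold in the edgeR test, and in the other 5 such fits, with changes of 1.11 to 1.82, Rpl41 passed both thresholds.

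Rps26, a protein of the small subunit that lines the exit of the messenger RNA and is one of the genes mutated in Diamond-Blackfan anaemia, was at 188, 219.5 and 295 CPM in WT cultures A to C. In K794Q cultures A to C it was at 869.6, 258 and 479 CPM, so that culture B lay below WT culture C and the groups overlapped. The log2 fold change was 1.19 (SE 0.46, adjusted p = 0.447, edgeR), with p = 0.2 in the exact permutation test. Among the 6 fits that leave out a culture it passed both thresholds in those without K794Q culture B (1.53) and without WT culture C (1.41). It missed the p threshold without K794Q culture A (0.65), K794Q culture C (1.27), WT culture A (1.06) and WT culture B (1.15). Rpl41 and Rps26 made up 2.41%, 2.76% and 3.06% of the counts of the family in WT cultures A to C and 9.26%, 3.81% and 9.11% in K794Q cultures A to C.

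Rpl41 (chr10:128548114-128549305) and Rps26 (chr10:128624534-128626747) are neighbours on distal chromosome 10 (GRCm38), with 76420 bases between their starts. Within 1 Mb of Rpl41, 36 of 43 other tested genes were higher at both thresholds and 0 were lower, with a median log2 fold change of 1.39. The median log2 ratio of these 43 genes was 1.70, 0.63 and 1.53 in K794Q cultures A to C and 0.08, 0.04 and -0.11 in WT cultures A to C. In each K794Q culture the ratios of Rpl41 (2.03, 0.46 and 1.55) thus lay near those of its neighbours, culture B being the lowest for both. The ratios of Rps26 were 1.89, 0.14 and 1.03, above the median of these 43 genes in K794Q culture A and below it in B and C. After the median level of 25 neighbouring genes in each culture was taken out, the log2 fold change was 0.09 (SE 0.28) for Rpl41 and -0.24 (SE 0.30) for Rps26 in the edgeR fit, and 0 of the 74 genes passed both thresholds, where 4.48% of all tested genes did. Over the tested genes within 20 Mb, the median ratio was 1.42, 0.47 and 1.30 in K794Q cultures A to C.

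**Figure D4:**
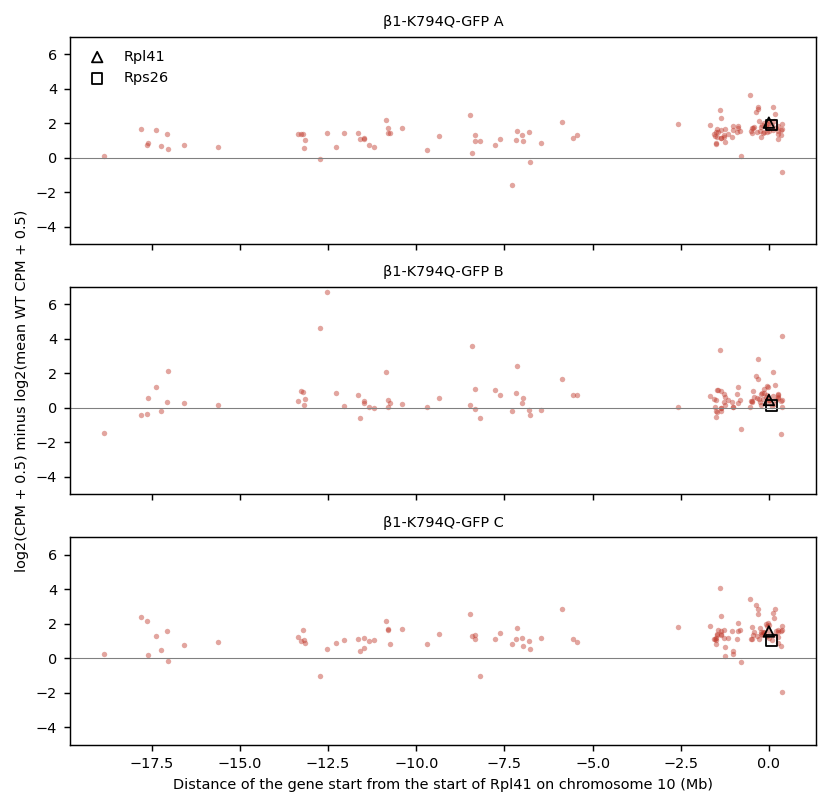
Log2 ratio of each tested gene within 20 Mb of Rpl41 to its β1-WT-GFP mean (y axis) against the distance of its start from that of Rpl41 in Mb (x axis), in 1 panel for each K794Q culture; open symbols are Rpl41 and Rps26. Most genes lie above 0, with a median of 1.42 in culture A, 0.47 in culture B and 1.30 in culture C, and the ribosomal protein genes lie among them.

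Rps15 and Rps12 are also on chromosome 10, where 107 of 549 tested genes (19.5%) were higher at both thresholds. Rps15, a small subunit protein near the decoding site, was at 207, 173 and 208 CPM in WT cultures A to C and at 416, 283 and 241 CPM in K794Q cultures A to C. The groups did not overlap, and the log2 fold change was 0.68 (SE 0.25, adjusted p = 0.427, edgeR), or 0.33 with the level of its neighbours taken out. The running median around Rps15 was 0.30, 0.30 and 0.42 in K794Q cultures A to C. Rps12, which lies 105 Mb from Rpl41, had a log2 fold change of -0.31 (SE 0.24). Around the 72 tested genes other than Rpl41 and Rps26 the mean running median of the K794Q cultures was between -0.24 and 0.35. The 78 genes lie on 19 chromosomes, with at most 14 on one (chromosome 7), and without the 4 on chromosome 10 the family median was -0.21.

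Outside chromosome 10, Rpl15 (chr14:18267823-18271391), a large subunit protein, had the largest positive change. Its level was 61.2, 61.8 and 55.3 CPM in WT cultures A to C and 88.9, 84.9 and 68.7 CPM in K794Q cultures A to C. It was higher in every K794Q culture than in any WT culture, with a log2 fold change of 0.44 (SE 0.16, adjusted p = 0.419, edgeR), and of 0.49 with the level of its neighbours taken out. Some of its 50-base stretches also stand in the transcripts of 23 other genes. Rpl41, Rps15 and Rpl15 were the 3 genes of the 74 whose K794Q cultures all lay above the WT cultures, as in 8.45% of all tested genes. Compared with the family median of the same culture, Rpl15 stood higher by 0.49, 0.72 and 0.75 on the log2 scale in K794Q cultures A to C and by 0.14, 0.19 and -0.31 in WT cultures A to C.

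Rpl35 (chr2:39001580-39005624), a protein at the exit of the peptide tunnel, had the largest negative change. Its level was 95.5, 157 and 168 CPM in WT cultures A to C and 86.2, 75.5 and 58.6 CPM in K794Q cultures A to C. The groups did not overlap, WT culture A being the nearest to the K794Q cultures. The log2 fold change was -0.93 (SE 0.27, adjusted p = 0.292, edgeR), short of 2-fold; it passed both thresholds without K794Q culture A (-1.07) and without WT culture A (-1.14). Of the distinct 50-base stretches of its message, 95.1% also stand in transcripts of 12 other genes, the largest share in the family, so that the count can depend on how reads with several matching places were handled, which the sources used here do not give.

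Rps15a, another small subunit protein, was at 151, 152 and 159 CPM in WT cultures A to C and at 132, 89.6 and 95.5 CPM in K794Q cultures A to C, a log2 fold change of -0.55 (SE 0.20, adjusted p = 0.406, edgeR). The WT cultures lay close together, and all K794Q cultures lay below them. Rps25 (log2 fold change -0.53, SE 0.23) and Rps23 (-0.47, SE 0.21), both of the small subunit, and Rpl32 of the large subunit (-0.54, SE 0.25) followed, and none of these 3 reached p of 0.05. Rps25 was at 56.2, 53.5 and 79.3 CPM in WT cultures A to C and at 52.5, 39.5 and 39.3 CPM in K794Q cultures A to C, with culture A close to the WT cultures. In all, 7 of the 74 genes had every K794Q culture below every WT culture, among them Rpl35, Rps15a, Rps25 and Rps23, as in 8.12% of all tested genes.

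The stalk of the large subunit, which recruits the translation factors and is built from Rplp0, Rplp1 and Rplp2 on a base that includes Rpl12, had list medians of 0.21, -0.22 and -0.56 on the log2 scale in K794Q cultures A to C, the order of the family. Rplp0 was at 237, 307 and 414 CPM in WT cultures A to C and at 405, 282 and 194 CPM in K794Q cultures A to C, so that both groups spanned about the same range. The log2 fold changes were -0.12 (SE 0.34) for Rplp0, -0.06 (SE 0.23) for Rplp1, -0.10 (SE 0.24) for Rplp2 and -0.40 (SE 0.28) for Rpl12, and 0 of the 4 passed a threshold. Rpl12 reached 451 CPM in WT culture C and was at 198 CPM in K794Q culture C. For each of the 4, the spread among cultures of a group was as large as the change between groups.

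Rpl5 and Rpl11 bind the 5S ribosomal RNA, and outside the ribosome this particle can hold back Mdm2, the ubiquitin ligase of p53. Rpl5 was at 133, 138 and 200.2 CPM in WT cultures A to C and at 161, 139.6 and 99.3 CPM in K794Q cultures A to C (log2 fold change -0.23, SE 0.26). Rpl11 was at 97.4, 84.4 and 122 CPM in WT cultures A to C and at 93.1, 84.9 and 78.3 CPM in K794Q cultures A to C (-0.24, SE 0.19). The groups overlapped for both. Of the stretches of the Rpl5 message, 93.8% also stand in other transcripts, against 62.2% for Rpl11.

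Of 8 genes of proteins around the peptide exit tunnel, 7 were tested, 6 had a log2 fold change below 0 and 0 passed both thresholds. Rpl4, whose protein reaches into the tunnel, was at 512, 549.9 and 863 CPM in WT cultures A to C and at 661, 602 and 398 CPM in K794Q cultures A to C (log2 fold change -0.21, SE 0.32). Rpl23a at the tunnel exit was the exception in sign (0.20, SE 0.34) and rested on K794Q culture A, which was at 152 CPM against 78.8 and 75.9 CPM in B and C, and without that culture its log2 fold change was -0.20. On the small subunit, the 4 genes of proteins at the entry of the message and the decoding site (Rps2, Rps3, Rps9 and Rps23) had values between -0.47 and -0.02, and 0 passed a threshold. Rps15, which also lies near the decoding site but was not on that list, was at 0.68.

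Rpsa, which is a ribosomal protein and also known as the laminin receptor at the cell surface, had a wide range among WT cultures. It was at 377, 391.7 and 739.9 CPM in WT cultures A to C and at 502, 409 and 354 CPM in K794Q cultures A to C. Rps2, the other small subunit gene with a wide range, was highest in the same culture, with 186, 218 and 377 CPM in WT cultures A to C. The log2 fold changes of Rpsa (-0.25, SE 0.33) and Rps2 (-0.33, SE 0.31) were about as large as their errors. Among genes with a mean of at least 10 CPM, Rps2, Rpsa and Rpl27 (from 18.9 to 35.0 CPM) had the widest WT ranges on the log2 scale. Among K794Q cultures, with the same limit, the widest ranges belonged to Rps26, Rpl41 (2.96-fold between the highest and the lowest) and Rpl28 (2.09-fold, from 95.8 CPM in culture C to 200.5 CPM in culture A).

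Rps6, the substrate of the S6 kinases, was at 173, 204 and 218 CPM in WT cultures A to C and at 216, 171 and 139 CPM in K794Q cultures A to C (log2 fold change -0.18, SE 0.22). Rps27a, made as a fusion with ubiquitin, had a log2 fold change of -0.16 (SE 0.23). Rps19, the first gene linked to Diamond-Blackfan anaemia, had one of 0.12 (SE 0.22). In K794Q cultures A to C it stood above the family median of its culture by 0.36, 0.23 and 0.35 on the log2 scale. In WT cultures A to C the same distance was 0.21, -0.001 and -0.19, so that WT culture A was close to K794Q culture B. The CPM of the groups overlapped for Rps6, Rps27a and Rps19, and their edgeR adjusted p values were 0.88, 0.897 and 0.917.

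Levels of different genes were compared as RPKM, the CPM per kb of all exons of the gene. The median over the 74 tested ribosomal protein genes was 91.4 RPKM. Rplp1 (567 RPKM), Rps15 (404 RPKM) and Rpl4 (298 RPKM) were the highest, Rps15 with 659.6 RPKM in K794Q culture A and 274 RPKM in WT culture B. Where the median length of the protein coding transcripts was used instead, the median was 222 RPKM against 14.2 RPKM over all tested genes, and Rps24 came first at 811 RPKM, Rps15 was eighth and Rpl4 eleventh, so that the order near the top depends on the length chosen.

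Some genes of the family had next to no counts. Rpl26 and Rpl30 had 0 counts in each of the 6 cultures, which allows up to 3 counts per culture or 0.209 to 0.300 CPM, and Rpl34 had 5 to 10 counts. Rps27 (1.68 to 4.37 CPM) and Rpl29 (2.86 to 5.16 CPM) passed the filter but stayed under 10 CPM in every culture, and their log2 fold changes were -0.44 (SE 0.44) and -0.06 (SE 0.35). These low rows were low in both groups alike, in a family whose proteins are made in nearly equal numbers. In 76 of the 77 ribosomal protein genes with a coding transcript in GENCODE M21, at least 1 of the 50-base stretches also stands in a transcript of another gene, with a median of 43.0% of stretches. That share was 72.8% for Rpl30, 44.0% for Rpl26, 59.7% for Rps27, 55.5% for Rpl29 and 20.4% for Rpl34. These values lay within the range of genes at a mean of 10 CPM or more. The median was 55.5% over these 5 low genes and 41.7% over the 72 genes at 10 CPM or more. The part of shared stretches in the low counts was not tested.

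Rps4y2, a small subunit symbol that matches the mouse gene Rps4l on chromosome 6 through a synonym, did not pass the filter. It had 53, 0 and 78 counts in K794Q cultures A to C, or 5.10, 0 and 6.71 CPM, and 0 counts in each WT culture. The mean of the K794Q cultures was at least 13.1-fold higher than the floor of 3 counts per library, and at least 8.51-fold higher without culture C, but K794Q culture B was at 0 like the WT cultures. It was the third gene of the family at both thresholds when the filter on low counts was left out.

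The Fau and Rack1 (Gnb2l1 in the table) proteins belong to the ribosome but fall outside the rule on symbols. Their log2 fold changes were -0.04 (SE 0.18) and -0.46 (SE 0.33), and neither passed a threshold. Of the 4 tested genes for paralogs, Rps27l, a target of p53, was at 46.5, 45.6 and 50.4 CPM in WT cultures A to C and at 65.2, 56.9 and 65.2 CPM in K794Q cultures A to C. Its groups did not overlap, with a log2 fold change of 0.39 (SE 0.15, adjusted p = 0.421, edgeR), and it did not follow the drop of the family in K794Q culture C. Rpl22l1 (0.12, SE 0.21), Rpl7l1 (0.04, SE 0.19) and Rpl36al (-0.04, SE 0.24) did not pass a threshold.

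Of 20 translation factors and other genes with TOP messages, Naca and Nap1l1 were higher at both thresholds and 0 were lower. Over all tested genes 3.48% were higher and 1.71% lower. The median log2 fold change of the 20 genes was -0.17. Naca, a subunit of the complex that meets new peptides at the tunnel exit, was at 173, 149 and 192 CPM in WT cultures A to C and at 497, 228 and 376 CPM in K794Q cultures A to C (1.10, SE 0.31, adjusted p = 0.286, edgeR). Nap1l1, a histone chaperone, was at 111, 100.2 and 231 CPM in WT cultures A to C and at 381, 187 and 442 CPM in K794Q cultures A to C (1.19, SE 0.46, adjusted p = 0.441, edgeR). Both are on chromosome 10, Naca 0.51 Mb from Rpl41, and with the level of their neighbours taken out their changes were -0.19 and 0.31. Nap1l1 passed both thresholds only without K794Q culture B or without WT culture C among the fits that leave out a culture, with a range of 0.94 to 1.68, and Naca was at 0.82 without K794Q culture A, short of 2-fold. Over all 20 genes the list medians were -0.19, -0.16 and 0.21 in WT cultures A to C and -0.01, -0.11 and -0.54 in K794Q cultures A to C. WT culture C was the highest and K794Q culture C the lowest, as for the ribosomal protein genes, while K794Q culture B lay above WT cultures A and B.

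Of 70 genes for ribosome assembly, 0 passed both thresholds (5.19% of all tested genes did), and the median log2 fold change was -0.19. At the p threshold alone Pes1 (0.90, SE 0.20, adjusted p = 0.168, edgeR), a factor for the large subunit, and Rrp1 (0.53, SE 0.16) were higher and Bccip (-0.49, SE 0.17) was lower. Over all tested genes 6.08% were higher and 4.08% lower at that threshold. Pes1 was at 36.2, 32.7 and 47.7 CPM in WT cultures A to C and at 76.1, 65.2 and 76.3 CPM in K794Q cultures A to C, with no overlap. With the level of their neighbours taken out, Pes1 was at -0.01 and Rrp1, on chromosome 10, at -0.13. Assembly genes differed from the ribosomal protein genes in which K794Q culture was lowest, since their list median was -0.06, -0.47 and -0.19 in cultures A to C. The 77 genes of the mitochondrial ribosome, which descends from bacteria, had a median of -0.14 with 0 past both thresholds. At the p threshold alone 2 were higher, both on chromosome 10 (6.08% of all tested genes), and 5 were lower (4.08% of all tested genes). Their list medians were -0.05, -0.07 and 0.12 in WT cultures A to C and 0.01, -0.13 and -0.24 in K794Q cultures A to C. The cultures thus stood in the same order as for the ribosomal protein genes, over a smaller range.

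**Figure D5:**
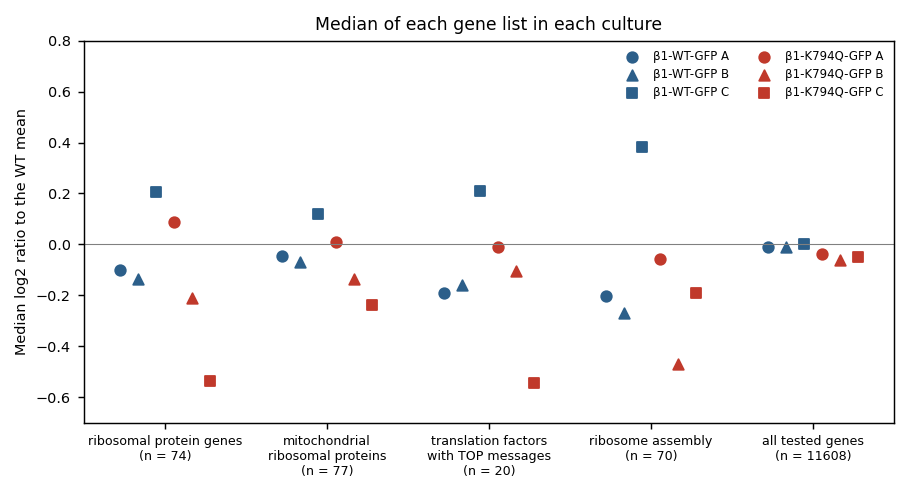
Median log2 ratio to the β1-WT-GFP mean (y axis) over the tested genes of each list (x axis, with n), 1 symbol per culture. The ribosomal protein genes spread from 0.21 in WT culture C to -0.54 in K794Q culture C. Genes with TOP messages also have these as their highest and lowest cultures, as do mitochondrial ribosomal protein genes over a smaller range (0.12 to -0.24). The median of all tested genes stays near 0 in each culture.

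Of 23 tested regulators of ribosomal protein genes and TOP messages, 0 passed both thresholds. Myc was at 22.4, 22.4 and 124 CPM in WT cultures A to C and at 73.3, 33.6 and 13.1 CPM in K794Q cultures A to C (log2 fold change -0.50, SE 0.88). Eif4ebp1, a brake on translation under mTOR, was at 45.1, 43.3 and 103 CPM in WT cultures A to C and at 54.4, 52.9 and 14.5 CPM in K794Q cultures A to C (-0.65, SE 0.58). Both were highest in WT culture C and lowest in K794Q culture C, as was the median of the ribosomal protein genes. K794Q culture B went the other way, with more Myc than WT cultures A and B and a lower median of the ribosomal protein genes; the part of these regulators, named for this pattern out of 23, was not tested. The Myc antagonist Mxd1 was highest in K794Q culture B, at 265 CPM against 13.6 to 57.9 CPM in the other 5. The log2 fold change of Mxd1 was 1.39, the largest of the 23, and ranged from -0.52 to 1.85 with a culture left out. Zbtb7a, on chromosome 10, had a log2 fold change of 0.76 (SE 0.25, adjusted p = 0.355, edgeR) and of 0.36 with the level of its neighbours taken out. Larp1, which binds TOP messages, was at -0.06 (SE 0.26), Mtor at 0.03 (SE 0.20), Rptor at 0.04 (SE 0.23), Rheb at -0.44 (SE 0.19), Tsc1 at -0.27 (SE 0.23), Tsc2 at -0.11 (SE 0.15), and the kinases Rps6kb1 and Rps6kb2 at -0.28 (SE 0.24) and -0.17 (SE 0.25). The log2 fold changes of the other Myc partners and antagonists were 0.02 for Mycn and for Max, 0.06 for Mxd3, 0.25 for Mxd4, 0.24 for Mxi1 and -0.10 for Mnt. Those of Larp4, Eif4ebp2, Tbp, Gabpa and Yy1 were -0.10, 0.11, -0.31, -0.14 and -0.12. Of the 23, Zbtb7a alone passed the p threshold, where 6.08% of all tested genes were higher and 4.08% lower. For most of the 23 the change was no larger than its error.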

How the data were processed

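The authors deposited 1 table of raw counts with a row for each mouse gene symbol and a column for each of 6 cultures. Per the submitters' processing notes, bcl2fastq 2.20.0, STAR 2.7.4a, HTSeq 0.9.1, edgeR 3.38.4 and the genome build mm10 were used; the annotation, the counting mode and the read length are not given in the sources used here. Per the study's methods, libraries were run more than once. The table has 0 further columns of per-sample values.

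The members and gene lists were chosen with earlier results of these data known. Genes were kept by filterByExpr (11608 of 23420), normalized with TMM and compared with the two-sided quasi-likelihood F-test of edgeR 4.0.16 in R 4.3.3, on all 6 cultures without covariates, as in the study, with Benjamini-Hochberg adjustment over all tested genes. The test was first tested on simulated data. Depth was 9589826 to 15287191 counts per culture. Log2 ratios used CPM + 0.5, and exact permutation tests, two-sided, compared 3 cultures with 3. Positions and lengths came from GENCODE M21 (GRCm38), 21777 symbols by name and 1262 by synonym; transcripts were compared in stretches of 50 bases on either strand. The genes named were those past both thresholds, the 5 largest positive and negative changes at a mean of at least 10 CPM, genes of fixed roles, the 3 highest and lowest RPKM and the 3 widest log2 ranges in each group at a mean of at least 10 CPM, 27 in all; of the related lists, genes past both thresholds and the tested paralogs and regulators. Rps12, Rps27, Rpl29, Rps4y2 and the other members outside this rule were named after their values were seen, as were Pes1, Rrp1 and Bccip. Alternatives were no filter, at least 10 counts in every culture, RLE, library totals, TMM without the family, DESeq2 1.42.0, the likelihood ratio test, the culture letter as a block, the running median of 25 neighbours in the offset and each culture left out. The 4 members on chromosome 10 were left out, and the transcript length was used, as alternatives chosen after seeing the data. Tables were made in Python 3.11.15 (numpy 2.4.6, pandas 2.3.3, scipy 1.17.1) and figures with matplotlib 3.10.9. Some single genes are not reported here.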

Additional observations from a re-analysis of the deposited data

How the results depend on the processing

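The family median log2 fold change stayed below 0 under every alternative run (-0.23 to -0.16 with the full set of cultures, -0.38 to -0.06 with a culture left out) and the difference in the share of counts ranged from -0.31 to -0.02 percentage points with a culture left out. Of the family, 1 gene instead of 2 passed both thresholds with the replicate block, where Rps26 fell to 1.03. With the regional level taken out 0 passed. Leaving out the 4 members on chromosome 10 also left 0, which was fixed in advance, since Rpl41 and Rps26 are among them and no fit was rerun. With a culture left out 1 to 2 passed, but not always the same genes. Without K794Q culture A these were 1 higher and 1 lower gene, and without WT culture A only Rpl35 passed, as lower. Over all tested genes the count was 603, 916 without the filter on low counts and 470 to 934 with a culture left out. With the regional level taken out Rps26 turned to -0.24 and Naca to -0.19. Genes with an adjusted p of at most 0.05 numbered 21 in the quasi-likelihood test, 318 in the likelihood ratio test and 477 in DESeq2. The culture letters were not taken as pairing: deviations of same-lettered cultures correlated at 0.11, 0.05 and 0.10 over genes. Of 1019 values for related lists and single genes under alternatives, 996 kept their side of the thresholds or, with no test, their size; 56 of these 996, none past the thresholds, had the opposite sign, among them Myc (-1.29 to 0.85 with a culture left out). The low number of cultures and reads shared with pseudogenes limit all values.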
